A study of Mus musculus with 6 samples.

Results

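The Notch receptors (Notch1, Notch2, Notch3 and Notch4), 4 of their ligands (Dll1, Dll4, Jag1 and Jag2) and the target genes Hey1 and Hes1 were followed in mouse endothelial cells that overexpress the extracellular superoxide dismutase SOD3. All non-control spots whose annotation names one of these 10 genes, of 21743 named genes in all, were taken, which gave 13 of the 55681 probes of the array and 22 of its 59305 spots. The cells belong to 1G11, a mouse microvascular endothelial line labeled with the strain C57BL/6NCrLBR, in a mock version (1G11-mock) and a version that overexpresses SOD3 (1G11-SOD3), and both had spent 6 h in medium from N202.1A mouse mammary cancer cells before RNA extraction. RNA of each version was put on 3 arrays (Agilent SurePrint Mouse G3, 1 color), 1 per independent experiment, and no array held cells without the tumor cell medium. Each version is 1 cell line, so any other difference between the lines cannot be told apart from SOD3. Mock control and overexpressing cells were compared to find which transcripts differ with SOD3 in an endothelium exposed to tumor factors.

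Notch receptors are membrane proteins that are activated by ligands on a neighboring cell. Ligand binding allows ADAM proteases and then γ-secretase to cut the receptor, and the freed intracellular domain enters the nucleus, where it joins Rbpj and a Mastermind protein and switches on Hes and Hey repressor genes. In blood vessels, Dll4 and Notch1 restrain the formation of tip cells during sprouting, Jag1 counters Dll4, Notch4 is largely endothelial, and Notch3 is best known from the mural cells, the pericytes and smooth muscle cells that wrap the vessel. The activity of the pathway is set by cleavage of the receptor protein, so transcript levels of receptors and ligands do not tell how active the receptors were. Neither protein nor receptor cleavage was measured on these arrays.

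Only 3 of the 10 genes, Notch2, Notch3 and Jag1, were well above background on all 6 arrays according to the scanner software, which compares the signal of each spot with its background. Notch4 was well above background on all 3 1G11-mock arrays and on 1 1G11-SOD3 array, replicate 1. Hes1 passed on 1 array, 1G11-mock replicate 1. The other 5 genes, Notch1, Dll1, Dll4, Jag2 and Hey1, did not pass on any array. Counted by probe, 8 of the 13 passed nowhere, and their log2 intensities ran from 6.62 to 8.01, where dark probes of the whole array also lay (median of 7.12, with 5% under 6.47 and 5% over 7.78). The receptors were thus measured for 3 of 4 genes, the ligands for 1 of 4 and the targets for 1 of 2, the latter on a single array. Intensities are given as log2 values after background correction and quantile normalization, and since each probe binds with its own strength, levels of different genes are not ranked.

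**Figure D1:**
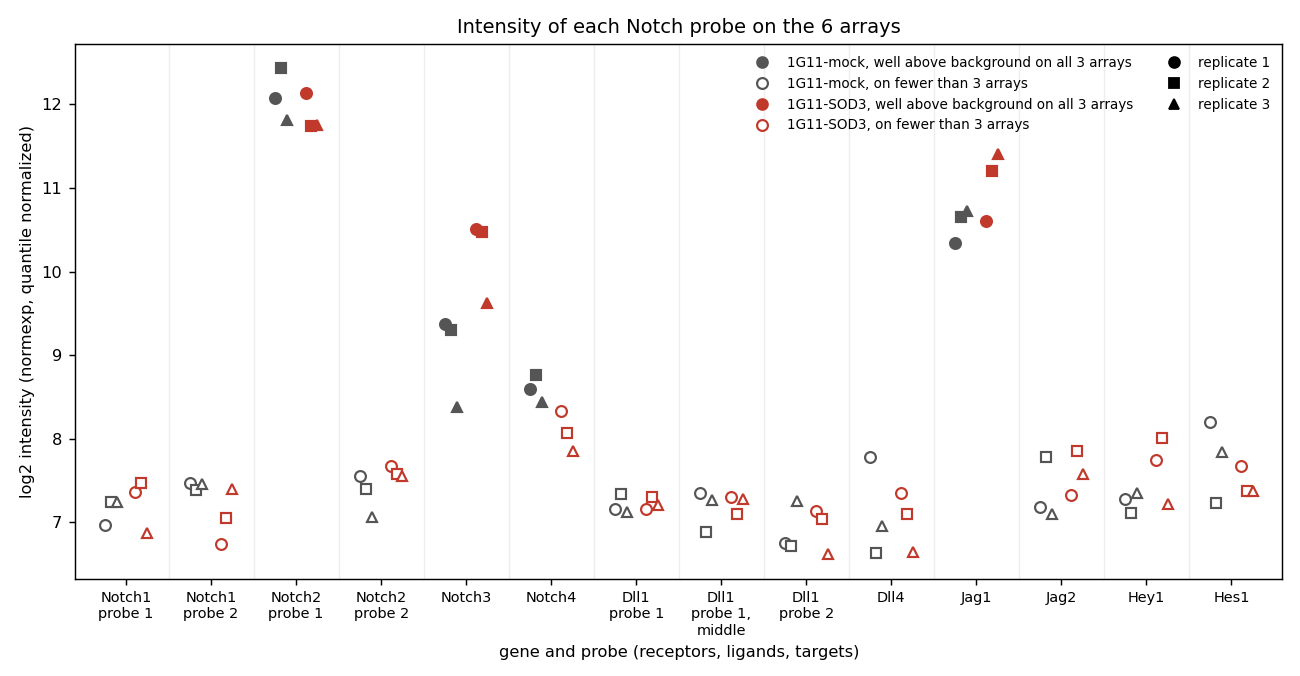
Log2 intensity (y axis) of every Notch probe (x axis) on each of the 6 arrays, with 1G11-mock in gray and 1G11-SOD3 in red, 1 symbol shape per replicate, and filled symbols where the probe was well above background on all 3 arrays of that cell line. Probe 1 of Notch2, Notch3 and Jag1 stand clear of the band between 6.62 and 8.20 that holds the dark probes and Hes1, and only Notch3 and Notch4 have no overlap between the cell lines.

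The setting of these values is a slide on which all 1G11-mock arrays lay in slide row 2 and all 1G11-SOD3 arrays in slide row 1, so slide row and cell line cannot be told apart. Between 34.2% and 43.8% of spots per array were well above background and none was saturated. Spots in rows 129 to 256 and columns 55 to 109, the middle of the array, were dim on the 1G11-mock arrays. This was measured on 128 probes printed 10 times, with a mean log2 intensity above 9 and copies both there and elsewhere. Their median log2 difference (middle minus elsewhere) was -0.67, -0.87 and -2.42 in the 3 replicates of 1G11-mock, against 0.15, -0.18 and 0.11 on the 1G11-SOD3 arrays. Of the Notch spots, 1 lay in that middle, a copy of a Dll1 probe, and it is given apart. Values after a position adjustment, which takes a smooth surface over rows and columns off each array, are printed beside the others. Sod3 itself was higher in 1G11-SOD3 on every array, with log2 intensities of 16.37, 16.30 and 16.26 against 13.61, 12.66 and 9.86 in 1G11-mock. That probe lies in the middle, and the log2 difference of 4.27 was 2.62 after position adjustment (limma, adjusted p = 0.0076 and 0.0139).

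Probes were called at more than 2-fold and a limma p under 0.05 after Benjamini-Hochberg adjustment over all values tested. The 13 Notch probes gave 14 tested values, 1 of them from the Dll1 copy in the middle, and none was called, against 3.02% of all 55961 values and 4.56% of those that were well above background on all arrays and outside the middle. At an unadjusted p under 0.05 there were 2, Notch3 and Notch4. These were also the 2 genes whose 3 1G11-SOD3 arrays lay wholly to one side of the 3 1G11-mock arrays, a separation that 20.8% of all values showed and 31.2% of those well above background on all arrays. The median log2 difference (1G11-SOD3 minus 1G11-mock) of the 14 values, of which 9 came from spots dark on all arrays, was 0.04, and that of all values was -0.03. Over the 3 genes well above background on all arrays it was 0.50, against -0.13 for all such values, and their single values of -0.23, 0.50 and 1.19 are described in turn.

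Among the receptors, Notch3 had the largest difference. Its log2 intensity was 9.37, 9.30 and 8.38 in replicates 1, 2 and 3 of 1G11-mock and 10.51, 10.47 and 9.62 on the 1G11-SOD3 arrays. Every 1G11-SOD3 array was brighter than every 1G11-mock array, and replicate 3 was the dimmest of its cell line in both. The log2 difference was 1.19 (SE 0.330, 95% interval 0.46 to 1.91, 3 arrays per cell line), a 2.28-fold higher level, with an unadjusted p of 0.00401 and an adjusted p of 0.0887 in limma. It missed the threshold in this fit and passed it with the replicate number as a block, which takes out shifts shared by arrays of the same number (log2 difference 1.19, limma adjusted p = 0.0118). The Notch3 probe, at chr17:32257848-32257907 in the array annotation, sits in row 105 and column 98, outside the middle. Position adjustment gave 9.35, 9.19 and 8.73 in 1G11-mock and 10.47, 10.27 and 9.53 in 1G11-SOD3, still without overlap. The log2 difference was then 1.00 (95% interval 0.35 to 1.65, limma adjusted p = 0.0871). The share of all values without overlap after position adjustment was not counted.

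Since Notch3 is known from mural cells, the markers of those cells are given beside it. Among all 21737 named genes, 3.03% were called higher in 1G11-SOD3 and 1.79% lower. Of 8 mural and smooth muscle markers, 4 were called higher in 1G11-SOD3 and none lower. They were Acta2, the smooth muscle actin, with log2 intensities of 10.10, 10.34 and 10.62 in 1G11-mock and 13.44, 13.15 and 12.32 in 1G11-SOD3, the actin-binding Tagln with a log2 difference of 1.45, the PDGF receptor Pdgfrb with 2.39, and calponin, Cnn1, which was well above background only in 1G11-SOD3 and at least 5.17-fold higher there. The limma adjusted p-values of the 4 ran from 0.000346 to 0.0105, and each was called after position adjustment as well. The pericyte and smooth muscle markers Myh11, Des and Rgs5 were well above background on no array, and Cspg4 on 1. The summed intensity of the 8 markers, as log2, lay between 11.62 and 11.70 for 1G11-mock but between 13.26 and 14.07 for 1G11-SOD3. Acta2 was the brightest of the 8 on every array. Of 5 fibroblast markers, 3 were called higher (Col1a1, Col1a2 and Lum). Col1a2 and Lum were well above background only in 1G11-SOD3, at least 1.5-fold and 2.47-fold higher there. Lum had 8.80, 8.62 and 10.33 in 1G11-SOD3, so its bound leans on replicate 3. The summed log2 intensity of the 5 lay between 14.29 and 15.08 for 1G11-mock but between 14.94 and 17.35 for 1G11-SOD3. The upper end of the latter came from 1 array, since Dcn, which was not called (limma adjusted p = 0.905), had 14.78, 14.48 and 14.04 in 1G11-mock and 13.51, 13.59 and 17.05 in 1G11-SOD3. Pdgfra was not called either (log2 difference 0.27). The part of either marker group in the Notch3 difference was not tested. In bulk RNA, more cells that express a gene and more RNA of it per cell cannot be told apart.

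**Figure D2:**
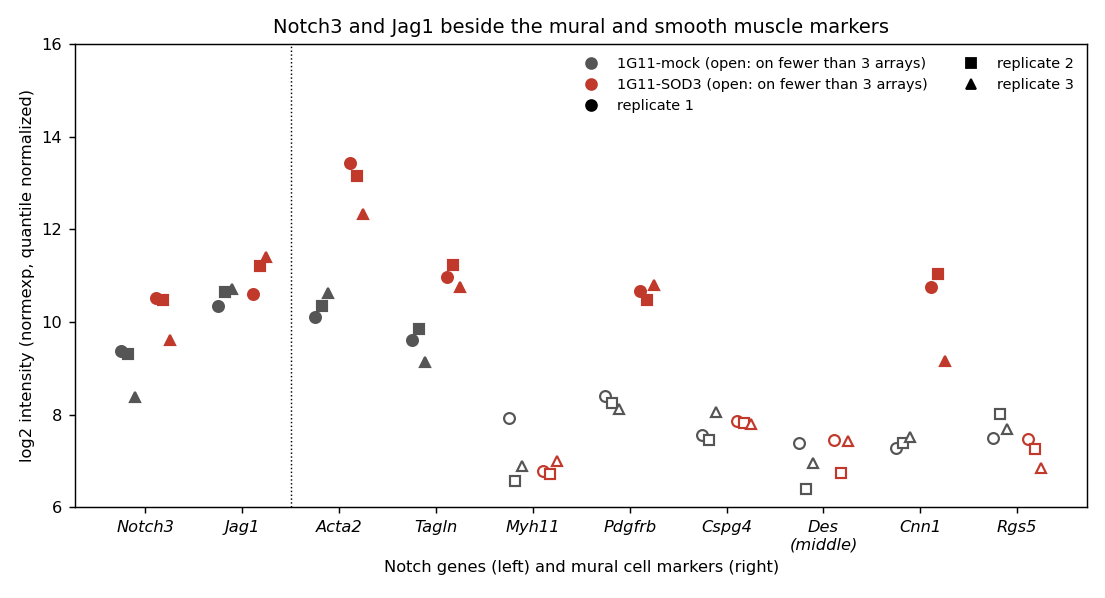
Log2 intensity (y axis) on the 6 arrays of Notch3, Jag1 and the 8 mural and smooth muscle markers (x axis), in gray for 1G11-mock and red for 1G11-SOD3, with open symbols where a gene was well above background on fewer than 3 arrays of that cell line. Acta2, Tagln, Pdgfrb and Cnn1 lie higher on all 1G11-SOD3 arrays, as Notch3 does by a smaller amount, while Myh11, Des and Rgs5 stay dark.

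Endothelial identity was uneven in these arrays. Of 12 endothelial markers, 4 were well above background on all arrays, 3 on some and 5 on none. Kdr, the main VEGF receptor of endothelium, was bright on all arrays at 12.97, 12.94 and 12.77 in 1G11-mock and 12.40, 12.45 and 12.31 in 1G11-SOD3 (log2 difference -0.51, limma adjusted p = 0.293). Those values are of its brighter probe. A second Kdr probe, printed 10 times, was well above background on no array, at 6.83 to 6.95. Cdh5, which encodes VE-cadherin, was well above background on none, and Pecam1 on 2 arrays of each cell line. The summed intensity of the 12 markers, as log2, ran from 14.44 up to 14.88 in 1G11-mock but from 13.97 up to 14.25 in 1G11-SOD3. That sum rests mostly on its brightest markers, Eng and Kdr, and neither was called. Eng had 13.25, 13.92 and 14.28 in 1G11-mock and 12.99, 12.52 and 12.78 in 1G11-SOD3 (log2 difference -1.05, limma adjusted p = 0.0821). Vwf, the von Willebrand factor gene, was called lower in 1G11-SOD3 (10.25, 10.07 and 10.16 against 8.73, 8.62 and 8.16, a log2 difference of -1.65, limma adjusted p = 0.00326, and -1.32 with 0.0395 after position adjustment). Egfl7 was called higher (log2 difference 1.82, limma adjusted p = 0.0172) but not after position adjustment (1.00, adjusted p = 0.0742), and Esam, with a probe in the middle, was called with the replicate block alone (1.22, limma adjusted p = 0.0478, or 0.186 without it, and -0.43 after position adjustment). Leukocyte and epithelial markers gave no call among 5 genes each. The epithelial Krt19 and the leukocyte markers Itgam and Cd3e were well above background on all arrays, while 2 epithelial and 3 leukocyte markers were so on none. The summed log2 intensity of the epithelial markers lay between 16.04 and 16.77 for 1G11-mock and between 15.43 and 16.36 for 1G11-SOD3. That of the leukocyte markers lay between 14.10 and 14.57 for 1G11-mock and between 14.22 and 14.55 for 1G11-SOD3.

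Notch2, a widely expressed receptor, was measured by 1 of its 2 probes. At chr3:97953914-97953973, log2 intensity was 12.08, 12.43 and 11.81 in 1G11-mock and 12.13, 11.74 and 11.75 in 1G11-SOD3. The cell lines overlapped, and the log2 difference was -0.23 (95% interval -0.77 to 0.31, limma adjusted p = 0.732), or -0.15 after position adjustment. An interval of this width leaves room for a decrease of up to 0.77 on the log2 scale. The other Notch2 probe was designed on the same RefSeq transcript and lies 2681 bases upstream, at chr3:97951233-97951292, yet it was well above background on no array, at 7.06 to 7.68. Notch1, the receptor of the tip cell pathway, has a like pair, and neither of its probes was measured. The more upstream probe, at chr2:26319440-26319499 on the minus strand, lay 4810 bases from the other. Both upstream probes are shown because the Notch2 one stayed dark on a transcript that its partner detected, and because the Notch1 one is of the same kind. Each has no stop codon in its first reading frame, and 55% of its bases are G or C, which is the 95th percentile over all probes of the array (median of 43.3%), where the bright Notch2 probe has 41.7%. Whether base content bears on the signal was not tested. The 2 probes are printed in lower case throughout because no base is singled out.
Notch1 upstream probe: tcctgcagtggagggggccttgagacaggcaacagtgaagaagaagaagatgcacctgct
Notch2 upstream probe: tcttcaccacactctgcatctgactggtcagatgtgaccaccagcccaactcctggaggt

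The upstream Notch1 probe had log2 intensities of 7.47, 7.39 and 7.46 in 1G11-mock and 6.74, 7.05 and 7.40 in 1G11-SOD3. The other, at chr2:26314630-26314689, had 6.97, 7.24 and 7.25 in 1G11-mock and 7.36, 7.47 and 6.87 in 1G11-SOD3. The 2 probes moved in opposite directions by 0.38 and 0.08 at most, all within the dark band, so neither a level nor a difference of Notch1 was obtained.

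Notch4 was measured close to background. Its log2 intensity was 8.60, 8.76 and 8.44 in 1G11-mock and 8.33, 8.07 and 7.86 in 1G11-SOD3, so that all 1G11-SOD3 arrays were lower. The log2 difference was -0.52 (SE 0.229, 95% interval -1.02 to -0.01), with an unadjusted p of 0.0449 and an adjusted p of 0.330 in limma. Position adjustment took the difference to -0.01 (95% interval -0.62 to 0.60), with values of 8.30, 8.87 and 7.85 against 8.36, 8.39 and 8.24, and the separation was gone. The probe, at chr17:34725120-34725179, lies in row 66 and column 21, where the surface itself differed by -0.30 between the cell lines. The shift of the Notch4 difference was larger than that. How well the surface holds for a probe so close to background was not tested, so the adjusted value is uncertain. A cDNA clone on the array carries Notch4 among several gene names but is mapped to chromosome 5 and was not counted as a Notch4 probe. It was well above background on 1 1G11-SOD3 array.

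Jag1, a ligand made by sprouting endothelium and by its neighbors, was the only ligand measured. Its log2 intensity was 10.34, 10.65 and 10.72 in 1G11-mock and 10.60, 11.20 and 11.40 in 1G11-SOD3. Replicates 2 and 3 of 1G11-SOD3 lay above all 1G11-mock arrays, while replicate 1 fell between them. The log2 difference was 0.50 (SE 0.261, 95% interval -0.07 to 1.07, limma adjusted p = 0.425). Position adjustment narrowed both cell lines, to 10.54, 10.47 and 10.58 against 11.01, 11.20 and 11.16. The cell lines then no longer overlapped, though the share of all values without overlap after adjustment was not counted. The log2 difference was 0.59 (95% interval 0.14 to 1.03, limma adjusted p = 0.126). The Jag1 probe lies at chr2:136907433-136907492, in row 327, far from the middle.

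**Figure D3:**
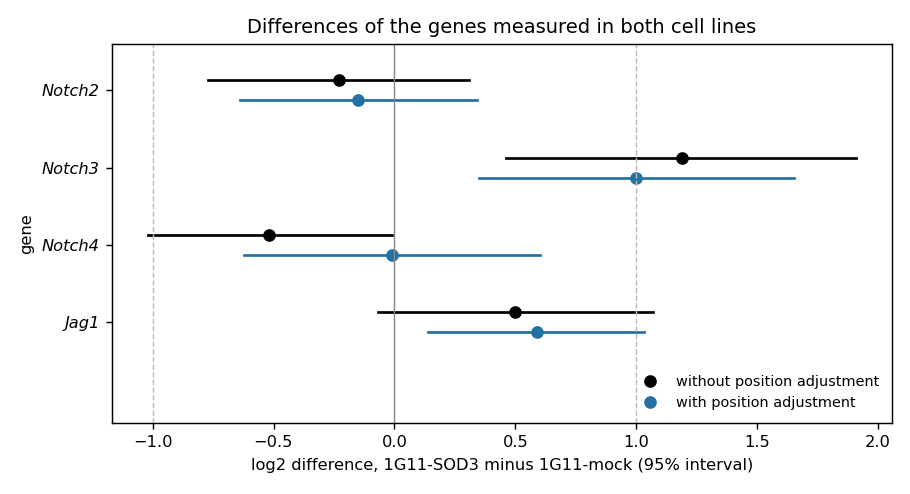
Log2 difference (x axis, 1G11-SOD3 minus 1G11-mock, with its 95% interval from limma) of Notch2, Notch3, Notch4 and Jag1 (y axis), without position adjustment in black and with it in blue. Dashed lines mark a 2-fold difference. Notch3 stays near 1 in both, Notch4 goes from -0.52 to -0.01, and the interval of Jag1 leaves 0 after adjustment.

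Dll1 and Dll4, the Delta-like ligands, and Jag2 were dark. The main Dll1 probe is printed 10 times on each array, which gives 60 readings, and none of them was well above background (log2 intensity from 6.71 to 8.07, median of 7.27). The 9 copies outside the middle averaged 7.16, 7.34 and 7.12 in 1G11-mock and 7.16, 7.31 and 7.21 in 1G11-SOD3. The copy in the middle, given apart, had 7.35, 6.89 and 7.27 in 1G11-mock and 7.31, 7.10 and 7.28 in 1G11-SOD3. The surface was learned from bright spots, and position-adjusted values of probes dark on all arrays are not used here. The second Dll1 probe had 6.75, 6.72 and 7.26 in 1G11-mock and 7.14, 7.04 and 6.62 in 1G11-SOD3. Dll4, the ligand of tip cells, had 7.78, 6.63 and 6.96 in 1G11-mock and 7.35, 7.10 and 6.65 in 1G11-SOD3, and Jag2 had 7.18, 7.78 and 7.10 in 1G11-mock and 7.33, 7.85 and 7.58 in 1G11-SOD3. No fold change is given for these genes, as both cell lines were at background.

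Hes1 and Hey1 encode repressors that Notch switches on directly, and neither gave a measured difference. Hes1 had log2 intensities of 8.20, 7.23 and 7.84 in 1G11-mock and 7.67, 7.38 and 7.38 in 1G11-SOD3. As it was well above background on 1 1G11-mock array and on none of 1G11-SOD3, no fold change is given, and the cell lines overlapped (limma adjusted p = 0.704). Hey1, at chr3:8663432-8663491, had 7.28, 7.11 and 7.35 in 1G11-mock and 7.75, 8.01 and 7.22 in 1G11-SOD3 and was well above background nowhere. The letters GTGGGAA, which Rbpj binds, were searched on both strands of the RefSeq promoter windows (build GRCm38.p6, 250 bases before to 50 after the start). They were in 0 of the 9 windows of the 8 Notch receptor and ligand genes and in 6.38% of all 32851 windows. The table holds no window for Hey1 or Hes1, so the promoters of the targets are not covered here.

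The rest of the pathway was described with 66 other genes in 8 groups, of which 65 have a probe. Of these, 44 were well above background on all 6 arrays, 9 on some and 12 on none. In the limma fit, 2 genes were called higher and 3 lower, of 65, against 3.03% higher and 1.79% lower among all 21737 named genes. Both genes called higher have their probe in the middle of the array, where 11.9% of all values were called higher. Among the 57 genes with a probe elsewhere, 3 were called, all of them lower, against 3.25% of all named genes there in either direction. After position adjustment none was called higher and 1 lower, against 1.86% and 2.72%. The median log2 difference of the 65 genes was -0.05, against -0.03 over all named genes.

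**Figure D4:**
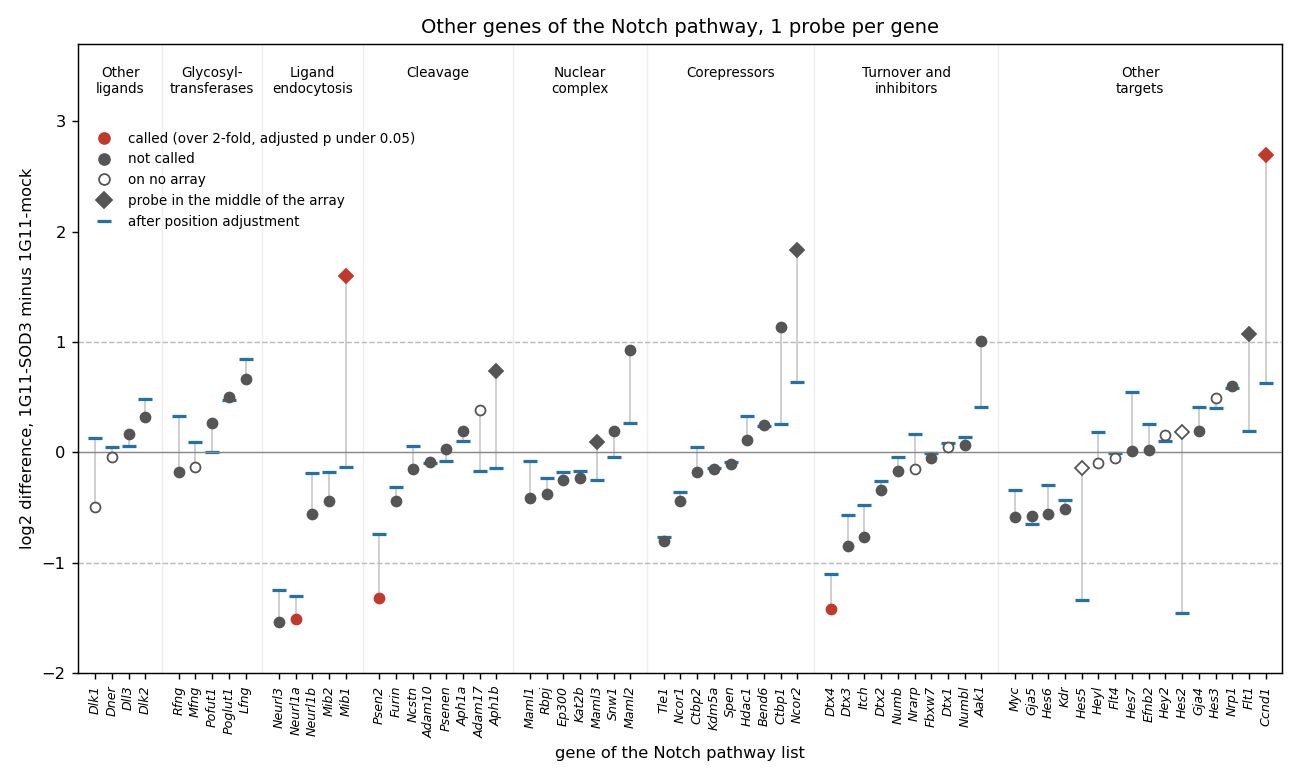
Log2 difference (y axis, 1G11-SOD3 minus 1G11-mock) of 64 other genes of the Notch pathway (x axis), in 8 groups and ordered by size within each, with called genes in red, diamonds for probes in the middle of the array, open symbols for genes on no array, and blue bars for the value after position adjustment. The called genes Mib1 and Ccnd1 are diamonds whose blue bars lie at -0.13 and 0.63, while Neurl1a stays at -1.30. Blue bars of genes on no array rest on a surface learned from bright spots and are not read.

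Ligand endocytosis, in which ubiquitin ligases of the sending cell take up the bound ligand and so pull on the receptor, held 2 of the called genes. Neurl1a, one of these ligases, had log2 intensities of 11.75, 11.64 and 11.93 in 1G11-mock and 10.58, 10.39 and 9.82 in 1G11-SOD3. All 1G11-SOD3 arrays were more than 1 log2 unit lower, and the log2 difference was -1.51 (SE 0.253, 95% interval -2.06 to -0.95, limma adjusted p = 0.00845), a 2.84-fold lower level. Neurl1a was the one gene of the list that was called after position adjustment (-1.30, limma adjusted p = 0.0125), and it was called with each array left out in turn. A second Neurl1a probe, which overlaps the first, gave -1.38 (limma adjusted p = 0.015). Mib1, the ligase that acts on most Notch ligands, had 8.64, 8.21 and 7.39 in 1G11-mock and 9.67, 9.37 and 9.99 in 1G11-SOD3. Its probe lies in the middle, and its log2 difference of 1.60 (limma adjusted p = 0.0211) was -0.13 after position adjustment. The call of Mib1 was lost without 1G11-mock replicate 2 and without 1G11-SOD3 replicate 1 or 3 (1.66, 1.60 and 1.44, limma adjusted p = 0.0728, 0.0713 and 0.105). The remaining ligases of the group, Mib2, Neurl1b and Neurl3, were not called.

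Of 9 cleavage genes with a probe, 1 was called. Psen2, which encodes a catalytic subunit of γ-secretase, had log2 intensities of 13.23, 12.93 and 13.56 in 1G11-mock and 11.41, 12.05 and 12.30 in 1G11-SOD3, with no overlap. The log2 difference was -1.32 (95% interval -1.94 to -0.70, limma adjusted p = 0.029). It was -0.74 after position adjustment (limma adjusted p = 0.107), and leaving out any 1 of the 6 arrays took the adjusted p to between 0.05 and 0.120, with log2 differences from -1.51 to -1.06. Adam10, the protease that makes the first ligand-induced cut, was bright on all arrays (log2 difference -0.09, limma adjusted p = 0.935). Adam17 was well above background on none, and Ncstn, a γ-secretase subunit, on 1 1G11-mock and 2 1G11-SOD3 arrays.

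Fringe glycosyltransferases, which add a sugar to Notch and so bias it between Delta-like and Jagged ligands, gave no call. Lfng was well above background on all 1G11-SOD3 arrays (8.19, 8.17 and 7.85) and on no 1G11-mock array (7.38, 7.40 and 7.45), so the 3 1G11-SOD3 arrays were brighter than all others and the level was at least 1.09-fold higher there (limma adjusted p = 0.161, and 0.0468 after position adjustment). This bound sets the 1G11-SOD3 mean against, on each 1G11-mock array, the lowest signal well above background. Rfng was bright on all arrays with a log2 difference of -0.18 (limma adjusted p = 0.827), and Mfng was dark. Pofut1, which adds the first fucose, had a log2 difference of 0.27 by its brighter probe. A second Pofut1 probe, in the middle, was well above background on all 1G11-SOD3 arrays and no 1G11-mock array, at least 1.65-fold higher by the same kind of bound, and was called (limma adjusted p = 0.0256), but not after position adjustment (adjusted p = 0.883).

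The nuclear complex gave no call among 7 genes. Rbpj, the DNA-binding partner of the Notch intracellular domain, had log2 intensities of 12.32, 12.03 and 12.52 in 1G11-mock and 11.91, 11.57 and 12.24 in 1G11-SOD3. The cell lines overlapped, with a log2 difference of -0.38 (limma adjusted p = 0.544). The 9 corepressors gave no call by their brightest probes, though 1 of 4 probes of Tle1, a Groucho corepressor, was called lower at -1.06 (limma adjusted p = 0.0459), and not after position adjustment (-0.82, adjusted p = 0.0560).

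In the group of turnover and inhibitors, 1 of 10 genes was called. Dtx4, a Deltex ubiquitin ligase that acts on Notch, had log2 intensities of 11.73, 12.08 and 12.91 in 1G11-mock and 11.01, 10.82 and 10.65 in 1G11-SOD3, again without overlap. Its log2 difference was -1.42 (95% interval -2.08 to -0.76, limma adjusted p = 0.0276), and -1.10 after position adjustment (limma adjusted p = 0.0615). The call held without 1G11-mock replicate 1 and was lost without each of the other 5 arrays (log2 difference from -1.51 to -1.08, limma adjusted p from 0.0551 to 0.119). Nrarp, a feedback inhibitor that Notch itself switches on, was dark on all 6 arrays.

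Of 16 other target genes, 7 were well above background on all arrays and 6 on none. The dark genes included Hes5, Hey2 and Heyl, the closest relatives of Hes1 and Hey1 in the list, together with Hes2, Hes3 and Flt4. The only probes of Hes5 and Hes2 lie in the middle, where the 1G11-mock arrays were dim. Hes6, a family member that can oppose Hes1, had 12.28, 12.61 and 12.51 in 1G11-mock and 12.24, 11.81 and 11.69 in 1G11-SOD3, a log2 difference of -0.56 without overlap that was not called (limma adjusted p = 0.308). Flt1, a VEGF receptor with its probe in the middle, was called with the replicate block alone (log2 difference 1.07, limma adjusted p = 0.0241, or 0.216 without it), which made 3 genes of the list called higher, and its difference was 0.19 after position adjustment. Efnb2, the arterial ephrin, differed by 0.02 (limma adjusted p = 0.985). Ccnd1, the cyclin D1 gene, which Notch is one of many to regulate, had 13.79, 11.20 and 10.93 in 1G11-mock and 15.19, 14.33 and 14.48 in 1G11-SOD3. It was called higher (log2 difference 2.69, 95% interval 1.37 to 4.01, limma adjusted p = 0.0353), its probe lies in the middle, and the difference was 0.63 after position adjustment (limma adjusted p = 0.323). Its call held without 1G11-mock replicate 1, where the log2 difference was 3.60, and was lost without each of the other 5 arrays (2.17 to 2.86, limma adjusted p from 0.0614 to 0.159).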

How the data were processed

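RNA of 6 samples, 3 per cell line, was measured on single-color Agilent arrays, all on 1 slide and from 1 scan. The authors deposited for each array spot and local background intensities from Agilent Feature Extraction 10.7.3.1, not normalized, with scanner flags, which are yes or no scores of each spot. They also deposited a table of log2 values (normexp background correction at an offset of 50, quantile normalized), which served as an alternative and in which each array had a median of 7.52. The same steps were rerun on the mean spot intensities with limma 3.58.1 in R 4.3.3, with control and outlier spots left out and copies of a probe averaged, those in the middle of the array apart from the rest. A probe with several copies counted as well above background where at least 50% of its copies were. Groups were compared with lmFit and eBayes, without a block, with Benjamini-Hochberg adjustment over 55961 values. A gene of a list was represented by its brightest probe. Names came from the RefSeq accession (27656 probes) or the description (996), and 27029 probes were unnamed. Coordinates are those of the array annotation, whose build is not given in the sources used here. Promoter windows and symbols are from RefSeq.

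The position adjustment took a Gaussian kernel surface (SD of 8 rows and 4 columns) off each array, fitted to spots that passed the background flag on 3 or more arrays. It was checked on 192 probes printed 10 times with a mean log2 intensity above 9. Their copies, held out of the fit, then differed less in their cell line difference (SD of 0.224 in place of 0.701). Dimmer probes were not checked in this way. Arrays with the same replicate number, which is also the slide column, deviated together from their group means (r = 0.202, 0.140 and 0.138 across 19946 probes for numbers 1, 2 and 3). The fit with the number as a block is therefore given where it changes the call of a Notch probe or of the brightest probe of a listed gene. The number of arrays limits the precision. The fit and the surface were tested on simulated data. The other alternatives were an offset of 16, no background correction, the median pixel intensity, the processed signal, scaling to the 75th percentile, dim probes left out, outlier spots kept, all copies averaged, every probe of a gene, and each array left out in turn. One gene of the pathway list enters its counts but is not reported here by itself. The slide could not serve as a block, as there was 1. Members, lists and tests were chosen with earlier results of these data known. The text was planned to name the 10 Notch genes with all probes, called pathway genes and a few others chosen beforehand by name. Cspg4, Acta2, Tagln, Pdgfrb, Cnn1, Myh11, Des, Rgs5, Col1a1, Col1a2, Lum, Dcn, Pdgfra, Vwf, Egfl7, Esam, Eng, Krt19, Cdh1, Itgam and Cd3e were named after their values were seen. So were the pathway genes Flt1, Mib2, Neurl1b, Neurl3, Pofut1, Hes2, Hes3 and Flt4, and the second probes of Pofut1, Tle1 and Kdr. The tables were computed and plotted in Python 3.11.15, pandas 2.3.3, scipy 1.17.1 and matplotlib 3.10.9.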

Additional observations from a re-analysis of the deposited data

How the results depend on the processing

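No Notch probe was called with any 1 array left out (0 to 0). The count rose to 1 (Notch3) with scaling to the 75th percentile (log2 difference 1.17, limma adjusted p = 0.0388) and with the replicate block, and to 2 with the processed signal, where Dll1 (the copy in the middle) and Dll4, both dark, were called lower. The processed signal and the 75th percentile moved the median of all values by -0.52 and -0.33. None of Notch2, Notch3, Notch4 and Jag1 changed sign under the 11 alternatives with 6 arrays or with each array left out, but Notch4 came to -0.01 with position adjustment and Notch2 to -0.06 with scaling to the 75th percentile, which leaves no direction. Notch3 ran from 0.88 to 1.25 over the former (adjusted p 0.0118 to 0.127) and from 0.87 to 1.48 over the latter (0.0742 to 0.290). The replicate block changed no other call of a Notch gene, and in the pathway list it added that of Flt1. Among the other pathway genes, the 2 called higher became 1 without background correction, 0 with the processed signal, 4 with scaling to the 75th percentile, and 0 with position adjustment, also with dim probes left out, an alternative chosen after seeing the data. The 3 called lower became 1 at an offset of 16, 7 with the processed signal and 1 with position adjustment. Position adjustment with dim probes left out, the alternative chosen after seeing the data, gave 2 called lower. These were Neurl1a and Dtx4 (-1.10 for Dtx4, limma adjusted p = 0.0389). With 1 array left out, 0 to 3 were called higher and 1 to 4 lower. Mib1 changed sign under position adjustment (-0.13, with or without dim probes). The causes of these changes were not tested. Signal over background left 5 of the 10 Notch genes unmeasured.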
